A study of Mus musculus with 4 samples.

Results

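Dorsal skin of mice given IL-17A DNA was set against dorsal skin of mice given GFP DNA, both without IMQ, across the annotated probes with a signal above background. The IL-17A group came from C57BL/6J mice of 8 to 12 weeks injected with mini-circle DNA for IL-17A, and the GFP group from mice of the same strain and age range injected with mini-circle DNA for GFP. Each group was 1 Illumina bead array hybridised with RNA from a pool of 6 mice, so 2 of the 4 arrays of the series entered the comparison. The other arrays held the same injections with an agent labelled IMQ, the usual abbreviation of imiquimod, and served as a second, separate pair. A mini-circle is a small circular expression vector without a bacterial backbone. The labels do not say where it was injected, which cells expressed it or how long before sampling, and the control mice also received DNA. No group had a replicate, so no test between the treatments was possible, and every fold below describes single pooled arrays.

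Of 12729 named genes above background on at least 1 of the 4 arrays, 12178 were above it on the IL-17A array, the GFP array or both, and 10830 on both. Another 693 were above it on the IL-17A array alone and 655 on the GFP array alone. The limit of background was an intensity of 12.6 on the IL-17A array and 12.7 on the GFP array. Pfn4 lay just inside it on the IL-17A array (12.564) and Dgki just outside (12.561), while Cd226 (12.658) and Olfr51 (12.647) did so on the GFP array. Levels below are normalised log2 intensities, and differences are IL-17A minus GFP on that scale. Genes count as higher or lower from a 2-fold difference on, provided that the brighter of the arrays passed its limit. This count uses the measured levels. A single gene's fold written "at least" is a lower bound, used where the dimmer array did not pass its limit.

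Interleukin 17A is a cytokine made mainly by T cells, and its receptor is present on keratinocytes and fibroblasts. Signalling through the adaptor Act1, encoded by Traf3ip2, leads to NF-kB and C/EBP transcription factors and to transcripts of antimicrobial proteins and neutrophil-attracting chemokines. In epidermis it is known for driving the keratinocyte state seen in psoriasis, with the stress keratins 6, 16 and 17. Hair follicles in the same skin pass through growth, regression and rest, and make hair keratins during growth.

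The skin identity of the arrays was checked on defining markers. Krt5, a keratin of basal keratinocytes, was at 13.78 in IL-17A skin and 13.41 in GFP skin, and the suprabasal Krt10 at 15.12 and 15.24 in the same order. The muscle creatine kinase gene Ckm (13.48 in IL-17A skin, 13.26 in GFP skin) and the fat cell gene Adipoq (11.88 in IL-17A skin, 11.95 in GFP skin) showed muscle and fat signal in both pools. Each of these markers was within 1.5-fold between the arrays. Il17a itself was below the limit on both, with intensities of 7.98 in IL-17A skin and 11.1 in GFP skin. The labels cannot be checked on it, since the sources do not say whether the probe reads the mini-circle transcript.

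The array of GFP skin without IMQ was part of the widest differences between arrays. The standard deviation of differences over the 12729 genes was 0.37 for IL-17A minus GFP skin, and 0.44 for IL-17A skin with IMQ minus GFP skin. It was 0.32 between the arrays with IMQ, 0.29 for GFP skin with IMQ minus GFP skin, 0.24 for IL-17A skin minus GFP skin with IMQ and 0.20 for IL-17A skin with IMQ minus IL-17A skin without. With GFP skin with IMQ as the control array instead, 57 genes reached 2-fold on the higher side and 4 on the lower. That substitute differs in both injection and IMQ and shares the IL-17A array, so its values are given beside the results and are no replicate. Differences between treatment and array cannot be told apart with 1 array a group.

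In IL-17A skin 107 genes were higher by 2-fold or more than in GFP skin, which is 0.841% of the genes, and 126 were at least 2-fold lower, which is 0.99%. GFP skin had the most extreme level of the 4 arrays for 97 of the 107 and for all 126. Choosing genes by this array favours such a position. Against GFP skin with IMQ, 46 of the 107 and 2 of the 126 were still 2-fold apart in the same direction. The median difference over all genes was 0.01, and the quartiles were at -0.14 and 0.17. The higher genes were further apart than the lower ones, with medians of 1.79 and -1.24. GFP skin was below the limit for 53 of the 107 higher genes, and for 8 of these the lower bound of the fold is under 2, which leaves 99. The 8 are Calhm4, Krt8, Krt82, Krtap10-10, Krtap15, Krtap19-2, Krtap31-2 and Sct. By contrast, IL-17A skin was below it for 3 of the 126 lower genes. By mean level on both arrays, 57 higher and 25 lower genes lay under 8, 43 and 83 between 8 and 11, and 7 and 18 at 11 or more. A mean level under 8 was found for 53.3% of the higher genes and 19.8% of the lower ones, against 57.1% of all genes.

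**Figure D1:**
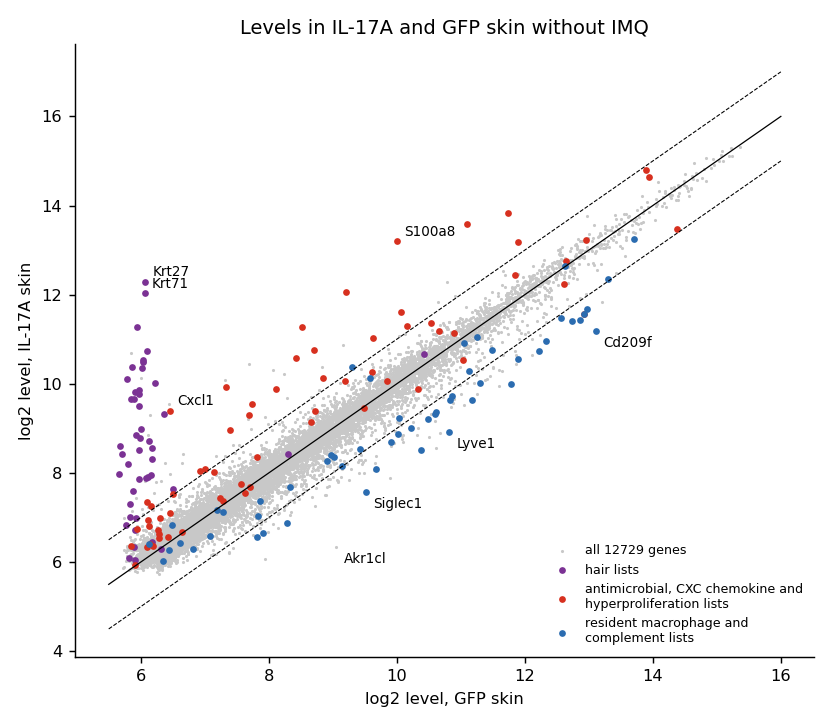
Normalised log2 level of 12729 genes in IL-17A skin (vertical axis) against GFP skin (horizontal axis), 1 pooled array each, with equality as a solid line and 2-fold differences as dashed lines. Hair genes stand in a column at the dim end of GFP skin, S100a8 and Cxcl1 above the upper dashed line, and macrophage and complement genes mostly near or under the lower one.

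The upstream sequences of leading higher genes are shown because several members of their lists were higher together. They come from RefSeq (GRCm38.p6), 250 bases before to 50 bases after the annotated start, and 6 genes are given from the antimicrobial, CXC chemokine and inner root sheath lists. S100a8 (chr3:90668821-90669120, plus strand) and S100a9 (chr3:90695672-90695971, minus strand) have the C/EBP pattern TTNNGNAA in capitals. Cxcl1 (chr5:90890995-90891294, plus strand) and Lcn2 (chr2:32387690-32387989, minus strand) have matches of an NF-kB pattern in capitals. Krt71 (chr15:101743048-101743347, minus strand) and Krt27 (chr11:99351069-99351368, minus strand) have the TATA box TATAAA in capitals. All patterns were searched on both strands.
S100a8: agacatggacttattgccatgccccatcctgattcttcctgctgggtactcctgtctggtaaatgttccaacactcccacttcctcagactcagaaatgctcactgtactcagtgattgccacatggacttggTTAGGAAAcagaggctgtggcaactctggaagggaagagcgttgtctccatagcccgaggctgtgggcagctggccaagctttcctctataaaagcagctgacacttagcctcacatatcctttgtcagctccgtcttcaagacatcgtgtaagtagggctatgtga
S100a9: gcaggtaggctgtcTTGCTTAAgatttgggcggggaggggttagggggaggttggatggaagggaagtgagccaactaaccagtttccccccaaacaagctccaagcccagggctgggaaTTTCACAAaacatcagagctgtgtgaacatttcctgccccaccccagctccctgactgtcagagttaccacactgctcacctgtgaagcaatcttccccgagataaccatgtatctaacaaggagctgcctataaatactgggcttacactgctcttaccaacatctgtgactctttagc
Cxcl1: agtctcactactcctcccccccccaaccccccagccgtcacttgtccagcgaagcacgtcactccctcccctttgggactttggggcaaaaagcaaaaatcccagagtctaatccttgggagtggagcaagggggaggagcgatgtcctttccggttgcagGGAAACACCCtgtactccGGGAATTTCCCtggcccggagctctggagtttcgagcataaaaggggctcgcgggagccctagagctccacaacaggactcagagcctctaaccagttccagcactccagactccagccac
Lcn2: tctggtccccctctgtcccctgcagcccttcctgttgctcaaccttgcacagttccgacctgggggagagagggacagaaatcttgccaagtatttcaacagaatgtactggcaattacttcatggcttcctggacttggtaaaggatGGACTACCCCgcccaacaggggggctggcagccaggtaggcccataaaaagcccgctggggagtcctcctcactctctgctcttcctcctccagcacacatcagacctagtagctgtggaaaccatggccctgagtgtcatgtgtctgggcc
Krt71: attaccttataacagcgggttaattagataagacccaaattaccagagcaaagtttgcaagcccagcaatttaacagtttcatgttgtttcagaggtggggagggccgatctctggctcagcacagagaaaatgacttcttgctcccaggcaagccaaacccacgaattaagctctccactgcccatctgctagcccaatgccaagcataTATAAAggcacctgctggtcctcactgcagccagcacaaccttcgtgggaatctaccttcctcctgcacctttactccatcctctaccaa
Krt27: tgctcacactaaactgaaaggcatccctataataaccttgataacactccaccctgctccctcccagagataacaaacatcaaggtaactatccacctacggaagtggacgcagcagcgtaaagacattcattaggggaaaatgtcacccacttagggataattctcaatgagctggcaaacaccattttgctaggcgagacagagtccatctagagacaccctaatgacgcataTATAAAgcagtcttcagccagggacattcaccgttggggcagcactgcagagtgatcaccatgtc

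The S100a8 window held 1 match of the C/EBP pattern and that of S100a9 held 2. Cxcl1 had 3 NF-kB matches, of which 2 overlap, and Lcn2 had 1. Among 21 promoters of genes at least 2-fold higher in the antimicrobial, CXC chemokine, IL-1 and hyperproliferation lists, 8 (38.1%) held the NF-kB pattern and 16 (76.2%) the C/EBP pattern, against 19.0% and 40.7% of all 27025 promoters of that length. Of 33 promoters of hair genes at least 2-fold higher, 27 (81.8%) held TATAAA and 8 (24.2%) the Lef1 pattern CTTTGAA, against 14.2% and 5.27% of all promoters. These patterns were frequent in other sets too: TATAAA was held by 42.9% of the first set and 40% of 5 lower interferon genes, the C/EBP pattern by 51.5% of the hair set and 55.6% of the macrophage set, and CTTTGAA by 16.7% of the macrophage set. For macrophage genes at least 2-fold lower, 1 of 18 held the PU.1 pattern GAGGAAGT, against 3.28% of all. Of the same 5 interferon genes, 3 held the interferon-stimulated response element, against 3.49% of all. Members of these families lie in clusters and share ancestry, so their promoters are not independent, and a match is a run of letters and not a measured site.

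Antimicrobial genes included S100a8, which had a difference of 3.19. S100a8, which with S100a9 forms calprotectin, a metal-binding antimicrobial protein, was at 13.19 in IL-17A skin and 10.01 in GFP skin. That is 9.10-fold higher, and with IMQ the levels were 14.50 in IL-17A skin and 10.14 in GFP skin. S100a9 stood at 12.05 in IL-17A skin and 9.21 in GFP skin. Both calprotectin genes had GFP levels that hardly differed with or without IMQ, so both GFP arrays were alike for them.

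Lcn2 encodes lipocalin 2, which binds bacterial siderophores. Its level was 10.58 in IL-17A skin and 8.43 in GFP skin, and 9.32 in GFP skin with IMQ. Chil1, a chitinase-like protein, was 2.62-fold higher at 11.02 in IL-17A skin and 9.63 in GFP skin. The protease inhibitor Slpi was 2.46-fold higher, Wfdc12 2.17-fold, the psoriasin relative S100a7a at least 2.13-fold and the acute-phase protein Saa1 at least 2.01-fold. With the mean of its probes the Saa1 difference was 0.55, though no other Saa1 probe was above the limit on the IL-17A or GFP array. On the other side was Lyz2, the lysozyme of macrophages and neutrophils, at 11.57 in IL-17A skin and 12.92 in GFP skin, 2.55-fold lower. In all, 8 of 22 measured genes of this list passed 2-fold on the higher side and 1 on the lower, and the median was 0.49. The beta-defensin Defb14 (0.52), Defb4 (0.45) and the cathelicidin gene Camp (0.24) were under 2-fold.

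On the chemokine lists, the genes that passed 2-fold were on the higher side for CXC and on the lower side for CC. Cxcl1, a ligand of Cxcr2, was at 9.39 in IL-17A skin and 6.46 in GFP skin, 7.62-fold higher, and with IMQ it was at 10.11 in IL-17A skin and 7.10 in GFP skin. Cxcr2 was 2.04-fold higher at 7.54 in IL-17A skin and 6.51 in GFP skin. These were the 2 of 11 genes on the list of CXC chemokines and receptors at least 2-fold higher, and 0 of that list were lower. Pf4, a CXC chemokine placed on the macrophage list, was 2.18-fold lower at 9.74 in IL-17A skin and 10.86 in GFP skin. Cxcl2, another Cxcr2 ligand, had a difference of 0.63 (7.10 in IL-17A skin, 6.46 in GFP skin), and the B-cell attractant Cxcl13 one of -0.50. Of 17 CC chemokines 5 were at least 2-fold lower and 0 higher: Ccl6 (2.74-fold), Ccl24 (2.41-fold), Ccl9 (2.20-fold), Ccl8 (2.17-fold) and Ccl12 (2.07-fold). With the mean of its probes, the Ccl12 difference was -0.67 and under 2-fold. The CC list had 8 genes above 0 and 9 below, with a median of -0.08. Ccl4 (0.71), Ccl3 (0.41) and Ccl7 (0.32), which also attract monocytes, were above 0.

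In the IL-1 family, 2 of 16 genes were at least 2-fold higher. Il33, an alarmin of epithelium and stroma, was at 9.68 in IL-17A skin and 8.28 in GFP skin, 2.62-fold higher. Il1b, an inflammatory cytokine, was 2.40-fold higher at 8.98 in IL-17A skin and 7.72 in GFP skin. Il1f6, which encodes IL-36 alpha, differed by 0.40, and the decoy receptor gene Il1r2 by -0.60.

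Genes of the IL-17 pathway itself were not 2-fold apart in any of 23 cases, and their median was 0.09. The receptor subunits lay on opposite sides, Il17rc at 11.21 in IL-17A skin and 10.54 in GFP skin, and Il17ra at 6.66 in IL-17A skin and 7.20 in GFP skin. Cebpb, a transcription factor of the pathway, differed by 0.56, and Zc3h12a, the endonuclease regnase-1 that limits it, by 0.45. Nfkbiz, the co-regulator I-kappa-B-zeta, differed by 0.20 and the deubiquitinase gene Tnfaip3 by -0.09. Of 17 genes of the IL-20 family and STAT3 signalling, 0 were 2-fold apart. Nearest to that fold were Il24 (0.92), the STAT3 feedback inhibitor Socs3 (0.90) and Il19 (0.86), of which Il19 was below the limit in GFP skin. In the EGF receptor axis, Hbegf, a keratinocyte growth factor, differed by 0.72 and the inhibitor Errfi1 by -0.77, with 0 of 11 at least 2-fold apart.

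S100a8 and S100a9 are also made by neutrophils, and markers of these cells stood as follows. Retnlg, a resistin-like gene of neutrophils, was at 8.23 in IL-17A skin and 6.37 in GFP skin, 3.61-fold higher, while the receptor gene Csf3r was at 7.08 in IL-17A skin and 6.65 in GFP skin. Prtn3, which encodes proteinase 3, was 2.74-fold lower at 7.27 in IL-17A skin and 8.72 in GFP skin. The oxidase genes Cyba and Ncf1, shared with macrophages, were 2.43-fold and 2.17-fold lower. Without S100a8 and S100a9, 20 neutrophil genes were measured, of which 2 passed 2-fold on the higher side and 3 on the lower. Another 2 close to that fold were Hdc (0.83), which mast cells also express, and Clec4d (0.81), and 12 of the 20 were above 0. The deposited intensities of the 20 summed to 8088 in IL-17A skin and 11080 in GFP skin, and with IMQ to 9356 in IL-17A skin and 5635 in GFP skin. All sums in this report are of intensities not normalised between arrays, so differences in array brightness enter them. The sum in IL-17A skin was thus lower than in GFP skin without IMQ and higher than in GFP skin with it. Cyba alone contributed 1164 in IL-17A skin and 2895 in GFP skin without IMQ, so the sum depends strongly on this gene. The part of neutrophils in the calprotectin result was not tested.

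Epidermal genes of the hyperproliferative state were higher as a group, with a median of 0.87, 13 of 31 at least 2-fold higher and 0 lower. Gjb2, which encodes the gap junction protein connexin 26, was at 11.28 in IL-17A skin and 8.52 in GFP skin, 6.76-fold higher. Its level in GFP skin with IMQ was 9.80. The partner connexin gene Gjb6 was 3.39-fold higher at 9.88 in IL-17A skin and 8.12 in GFP skin.

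The stress keratins followed. Krt6b was at 13.59 in IL-17A skin and 11.09 in GFP skin, and Krt16, its pairing partner, at 13.83 in IL-17A skin and 11.74 in GFP skin. Krt6a was 2.99-fold higher, and Krt17 had a difference of 0.71 from an already high level of 13.94 in GFP skin. GFP skin with IMQ had Krt6b at 10.68 and Krt16 at 11.99, close to GFP skin without it. Near-identical relatives can share signal in the next families: the Csta3 (6.02-fold) and Stfa2 (4.15-fold) probes of the stefin protease inhibitors were higher, as were the Sprr2e (3.50-fold), Sprr2g (3.05-fold), Sprr2d (2.93-fold), Sprr1b (2.46-fold) and Sprr2f (2.14-fold) probes of cornified envelope precursors. Rptn, which encodes repetin, was 2.20-fold higher, and under 2-fold with the mean of its probes (0.96).

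The late cornified envelope genes are a cluster with several branches. Of 5 Lce3 probes 4 were at least 2-fold higher: Lce3f was at 10.87 in IL-17A skin and 9.16 in GFP skin, followed by Lce3e (2.92-fold), Lce3c (2.30-fold) and Lce3b (2.05-fold). Lce1 genes are on the list of homeostatic epidermis, where 0 of 33 genes were 2-fold apart and the median was 0.06. Loricrin (Lor) was at 14.99 in IL-17A skin and 15.03 in GFP skin, and the suprabasal Krt1 at 11.67 in IL-17A skin and 11.40 in GFP skin. The highest difference of that list was that of Crnn (0.62), below the limit in GFP skin. Adhesion genes of desmosomes and hemidesmosomes had a median of 0.36 with 0 of 19 at least 2-fold apart, led by the integrin gene Itga3 (0.72). Cell division genes were above 0 in 26 of 31 cases, with a median of 0.23, and Cdc20 was at 9.71 in IL-17A skin and 9.02 in GFP skin, as the largest of them.

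Lipid genes shifted by small amounts. In the sebaceous and barrier lipid list 20 of 27 were above 0, the median was 0.18 and 0 were 2-fold apart. Elovl3, a fatty acid elongase of sebaceous glands, came closest at 8.45 in IL-17A skin and 7.47 in GFP skin. The cholesterol synthesis genes had a median of 0.21, with the isomerase gene Idi1 (0.50) and Hsd17b7 (0.44) leading. Against GFP skin with IMQ these medians were 0.01 for sebaceous and barrier lipid genes and -0.08 for cholesterol synthesis.

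**Figure D2:**
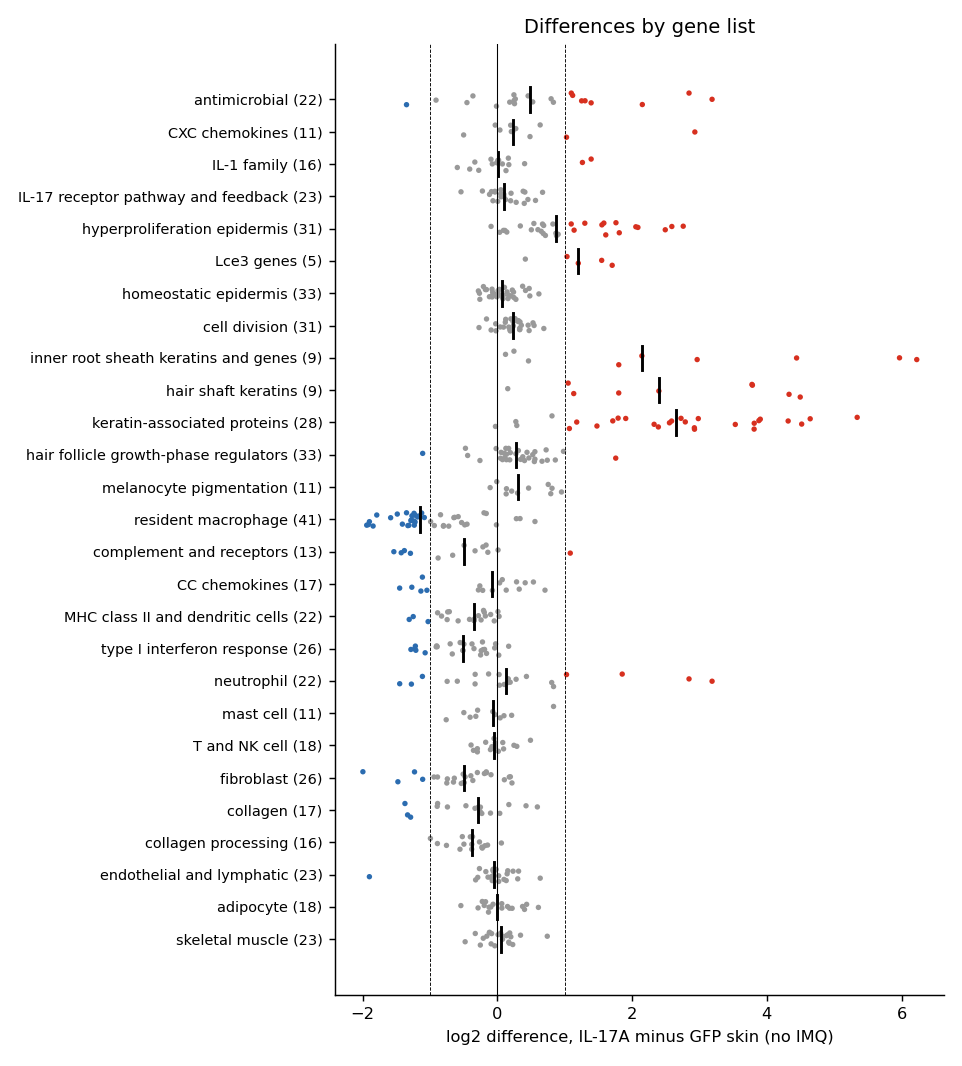
Differences between IL-17A and GFP skin without IMQ on the log2 scale for the measured members of 27 gene lists, with the number of members in brackets and the list median as a black bar. Points at least 2-fold higher are red and at least 2-fold lower blue. The 3 hair lists lie furthest to the right and the resident macrophage list furthest to the left, while homeostatic epidermis, fat and muscle lie about 0.

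Hair follicle genes gave the largest differences of all. Krt27 and Krt71 encode keratins of the sheath that moulds the growing hair from inside the follicle. They were at 12.29 and 12.03 in IL-17A skin and below the limit in GFP skin, at 6.07 and 6.06. The lower bounds are 65.9-fold for Krt27 and 54.9-fold for Krt71. GFP skin with IMQ had Krt27 at 11.24 and Krt71 at 10.99, and IL-17A skin with IMQ had them at 13.11 and 12.81. Thus 3 of the 4 arrays had these transcripts while both were below the limit on the GFP array without IMQ. In a whole-skin pool, more cells of a type and more RNA per cell cannot be told apart.

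The other inner root sheath keratins were Krt73 (at least 18.8-fold), Krt28 (7.81-fold), Krt26 (at least 4.19-fold) and Krt72 (at least 3.27-fold), which made 6 of 9 genes at least 2-fold higher. The list's transcription factor genes Gata3 (0.24) and Cux1 (0.12) were close to 0. Of 9 hair shaft keratins 8 had measured levels 2-fold or more higher, or 7 without Krt82, whose lower bound is 1.65-fold. They were led by Krt34 (10.53 in IL-17A skin, 6.04 in GFP skin, at least 19.4-fold), Krt33a (at least 17.1-fold) and Krt86 (at least 13.5-fold). Krt84 was the only one of these 8 that was above the limit in GFP skin, at 7.64 in IL-17A skin and 6.50 in GFP skin.

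Keratin-associated proteins form the matrix between hair keratin filaments, and their probes can read related family members. The median of the 28 measured was 2.66, and 24 of them passed 2-fold by their measured levels, all on the higher side. Without Krtap15 and Krtap19-2, whose lower bounds are under 2-fold, they are 22. Krtap7-1 was at 11.28 in IL-17A skin and 5.94 in GFP skin, at least 32.6-fold higher, with 12.14 in IL-17A skin with IMQ and 10.27 in GFP skin with IMQ. Krtap3-1 (at least 22.4-fold), Krtap6-2 (at least 17.5-fold) and Krtap6-5 (at least 14.4-fold) followed. Outside these lists, S100a3, an S100 protein of the hair cuticle, was at least 18.8-fold higher. Prr9, a proline-rich gene, was at least 21.6-fold higher at 10.68 in IL-17A skin and 5.85 in GFP skin, and Tchhl1, a relative of trichohyalin, 8.64-fold higher.

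The summed intensity of the 46 measured genes of the 3 hair lists, not normalised, was 34135 in IL-17A skin and 1796 in GFP skin. With IMQ it was 55231 in IL-17A skin and 14999 in GFP skin. The number of these genes above the limit was 44 in IL-17A skin and 5 in GFP skin, and 46 and 43 with IMQ in the same order. Set against GFP skin with IMQ, the medians of IL-17A skin without IMQ were 0.52 for the inner root sheath list, 0.99 for hair shaft keratins and 0.72 for keratin-associated proteins. They were above 0 against either control array and smaller against the one with IMQ, with the same IL-17A array in both comparisons.

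Regulators of the follicle's growth phase differed far less than its structural genes. Of 33 measured, 28 were above 0, with a median of 0.27, and 1 was at least 2-fold higher and 1 lower. Crym, which encodes mu-crystallin, a thyroid hormone-binding protein, was at 8.42 in IL-17A skin and 6.66 in GFP skin. Cd34, a marker of bulge stem cells in mouse follicles that endothelial and stromal cells also carry, was at 8.29 in IL-17A skin and 9.40 in GFP skin, and at 8.06 in GFP skin with IMQ. Elovl3 (0.98), which is also on the lipid list, Dlx3 (0.86), Sox9 (0.74) and Grem1 (0.72) were under 2-fold, as were Hoxc13 (0.47), a regulator of hair keratin genes, and the morphogen gene Shh (0.44), below the limit in GFP skin. Pigment cell genes had a median of 0.30 over 11, led by Mlana at 7.37 in IL-17A skin and 6.42 in GFP skin, with Gpnmb (0.81), Tyrp1 (0.79) and Pmel (0.75) next and 0 at least 2-fold apart. A second probe gave smaller differences of 0.008 for Gpnmb, 0.14 for Tyrp1 and 0.52 for Pmel.

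**Figure D3:**
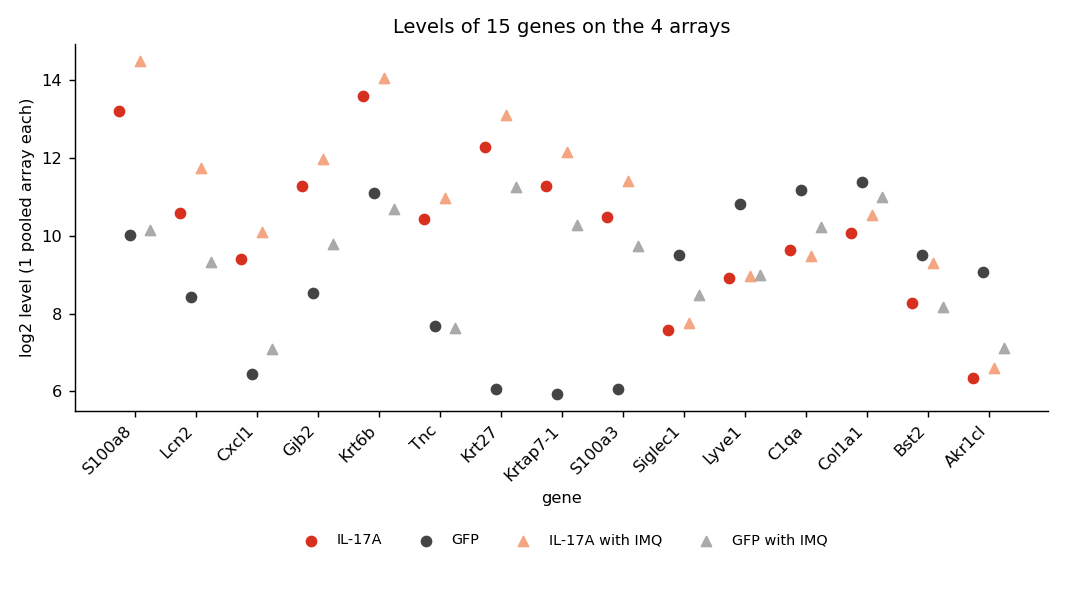
Normalised log2 levels of 15 genes on the 4 pooled arrays, circles without and triangles with IMQ. S100a8, Cxcl1, Krt6b and Tnc are higher with IL-17A in both pairs, Cxcl1 by like amounts and S100a8, Krt6b and Tnc by more with IMQ. Krt27 and Krtap7-1 are higher with IL-17A in both pairs too and lowest by far in GFP skin without IMQ. Siglec1, Lyve1, C1qa, Col1a1, Bst2 and Akr1cl are highest on that array.

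Macrophage genes made up the largest group on the lower side. Of 41 measured genes of resident macrophages 23 were at least 2-fold lower, 0 were higher, 38 were below 0 and the median was -1.15. Siglec1, a sialic acid-binding receptor, was at 7.58 in IL-17A skin and 9.52 in GFP skin, 3.84-fold lower. Cd209f, a C-type lectin gene, was at 11.20 in IL-17A skin and 13.11 in GFP skin, 3.78-fold lower. With IMQ the levels of Cd209f were 10.85 in IL-17A skin and 12.16 in GFP skin, so it was lower in IL-17A skin in both pairs.

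Lyve1, a hyaluronan receptor of lymphatic vessels and of a class of tissue macrophages, was at 8.92 in IL-17A skin and 10.82 in GFP skin, 3.74-fold lower. Both IMQ arrays had nearly the same Lyve1 level, 8.98 in IL-17A skin and 8.99 in GFP skin. The lymphatic genes Flt4 (6.45 in IL-17A skin, 6.22 in GFP skin) and Mmrn1 (7.27 in IL-17A skin, 7.36 in GFP skin) were under 2-fold apart. Flt4 was below the limit in GFP skin. Of the 23 genes of the endothelial and lymphatic list, Lyve1 alone was at least 2-fold lower.

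Scavenger and phagocytic receptors were among the lower genes. Mrc1, the mannose receptor, was at 10.56 in IL-17A skin and 11.89 in GFP skin, 2.51-fold lower. Folr2, a folate receptor, was 2.44-fold lower, the phosphatidylserine receptor Timd4 2.36-fold, Trem2 2.66-fold and Adgre1, the F4/80 antigen, 2.34-fold. The Fc receptor genes Fcgr2b (2.42-fold), Fcgr3 (2.35-fold) and Fcer1g (2.12-fold) and the adaptor Tyrobp (2.23-fold) were lower as well. Stab1, a scavenger receptor that sinusoidal endothelium also carries, was on the other side, at 10.13 in IL-17A skin and 9.57 in GFP skin. With the mean of their probes, Fcgr2b (-0.78) and Ms4a7 (-0.79) were under 2-fold. The macrophage growth factor receptor gene Csf1r (-0.80) and the haemoglobin scavenger receptor Cd163 (-0.85) were under 2-fold with the probe used.

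Over the whole list of 41 genes the summed intensity, not normalised, was 44220 in IL-17A skin and 97502 in GFP skin. With IMQ it was 40762 in IL-17A skin and 53410 in GFP skin. IL-17A skin had all 41 genes above the limit and GFP skin 40. Against GFP skin with IMQ the list median was -0.35, with 2 of 41 at least 2-fold lower. The direction was the same with either control array, and its size was smaller with the second, but both comparisons share the IL-17A array.

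Complement genes of macrophages followed. C1qa, C1qb and C1qc encode the chains of C1q, which starts the classical pathway, and were 2.91-fold, 2.69-fold and 2.61-fold lower. C1qa was at 9.64 in IL-17A skin and 11.18 in GFP skin. Properdin (Cfp) was 2.45-fold lower, and Masp1, a lectin pathway protease, was 2.12-fold higher at 10.38 in IL-17A skin and 9.30 in GFP skin, though under 2-fold with the mean of its probes (0.72). In the list of MHC class II and dendritic cells 20 of 22 genes were below 0, with a median of -0.35. Clec10a (2.48-fold), the co-stimulator Cd86 (2.38-fold) and H2-DMb1 (2.04-fold) were at least 2-fold lower, H2-DMb1 at -0.99 with median scaling. The class II chain gene H2-Aa was at 10.61 in IL-17A skin and 11.36 in GFP skin.

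Interferon-induced genes were lower by a smaller amount, with 5 of 26 at least 2-fold lower, 0 higher and a median of -0.50. Oas1g, a 2'-5' oligoadenylate synthetase, was at 8.67 in IL-17A skin and 9.96 in GFP skin. Bst2, which encodes tetherin, was at 8.28 in IL-17A skin and 9.51 in GFP skin, and Rsad2, which encodes viperin, at 7.85 in IL-17A skin and 8.93 in GFP skin. Oasl2 and Oasl1 were 2.33-fold and 2.32-fold lower, and under 2-fold with the mean of their probes (-0.83 and -0.99). Against GFP skin with IMQ the list median was -0.02. The shift of this list was near 0 against that control.

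Other immune cells had few genes 2-fold apart. Of 18 T and NK cell genes and 11 mast cell genes 0 were, with medians of -0.05 and -0.07. Cd3e, a T cell receptor subunit, was at 7.18 in IL-17A skin and 7.29 in GFP skin. Cpa3, the mast cell carboxypeptidase, was at 9.50 in IL-17A skin and 9.82 in GFP skin. Antigen-processing genes of MHC class I and the immunoproteasome had a median of -0.19 over 13, with Psmb8 at -0.55.

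Dermal matrix genes were lower, with fewer of them past 2-fold. Col1a1, a chain of type I collagen, was at 10.08 in IL-17A skin and 11.37 in GFP skin, and Col1a2, the other chain, was 2.52-fold lower. Col5a1, of the fibril-nucleating type V collagen, was 2.59-fold lower at 9.48 in IL-17A skin and 10.85 in GFP skin. These were 3 of 17 collagen genes, whose median was -0.28, while the short-chain collagen gene Col8a2 was 0.59 above 0. Collagen-processing genes were below 0 in 15 of 16 cases with a median of -0.38, and elastic fibre genes in 14 of 16 with a median of -0.31. Pcolce2, an enhancer of procollagen processing, was at 9.07 in IL-17A skin and 10.07 in GFP skin, just under 2-fold.

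Of 26 fibroblast genes 4 were at least 2-fold lower, 22 were below 0 and the median was -0.50. Ccn5, a matricellular protein, was at 7.89 in IL-17A skin and 9.89 in GFP skin, 4.00-fold lower, and at 8.56 in GFP skin with IMQ. Igfbp6 (2.79-fold), Clec3b (2.35-fold) and Cd34 (2.16-fold) were the others. The leucine-rich proteoglycan Ogn was 2.23-fold lower, and -0.82 with the mean of its probes, while decorin (Dcn) stood at 13.68 in IL-17A skin and 14.03 in GFP skin. The fibroblast receptor gene Pdgfra was at 9.52 in IL-17A skin and 10.16 in GFP skin. Against GFP skin with IMQ the medians were 0.01 for the fibroblast list, -0.14 for collagens, -0.045 for collagen processing and -0.001 for elastic fibres. The fibroblast, collagen-processing and elastic fibre shifts were therefore seen with the GFP array without IMQ and hardly with the one with it.

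2 matrix genes went the other way. Tnc, which encodes tenascin C, a matrix protein of wounds, was at 10.44 in IL-17A skin and 7.69 in GFP skin, 6.71-fold higher, and at 7.63 in GFP skin with IMQ. Its 3 other probes ranged from -0.02 to 2.59. Timp1, an inhibitor of metalloproteinases, was at 10.37 in IL-17A skin and 8.84 in GFP skin, 2.89-fold higher, and a second probe gave 1.55. Those were 2 of 22 matrix remodelling genes, and Mmp13 (0.75) and Mmp9 (0.03) were under 2-fold.

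Stress and detoxification genes went both ways. Gsta4, a glutathione transferase for lipid aldehydes, was at 10.22 in IL-17A skin and 8.23 in GFP skin, 3.97-fold higher. Gpx2, a glutathione peroxidase of epithelia, and Mt2, a metallothionein, were 2.29-fold and 2.14-fold higher. Akr1cl, an aldo-keto reductase gene, was the lowest of all genes at 6.34 in IL-17A skin and 9.06 in GFP skin, 6.59-fold lower, with 7.11 in GFP skin with IMQ. Hmox1, the haem oxygenase that macrophages carry, was 2.64-fold lower, and Cyp2f2 2.05-fold lower. Further lower genes outside the lists were Pla1a, a phosphatidylserine phospholipase (4.11-fold), Greb1, an oestrogen-induced gene (at least 3.20-fold), Slamf9 (3.46-fold), Pld4 (3.25-fold) and Spon2 (3.13-fold). The second Spon2 probe was at -0.06, and the mean of its probes at -0.85.

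Other tissues and housekeeping lists showed little difference. The medians were 0.05 for 23 skeletal muscle genes, 0.00 for 18 fat cell genes, -0.04 for 12 pericyte and smooth muscle genes, -0.03 for 17 ribosomal protein genes and 0.04 for 21 respiratory chain genes, with 0 at least 2-fold apart in any. The summed muscle intensity, not normalised, was 263517 in IL-17A skin and 267134 in GFP skin. With IMQ it was 225821 in IL-17A skin and 229392 in GFP skin. The list of immediate early and heat shock genes had a median of 0.06, with 0 of 23 at least 2-fold apart. Junb (0.89) and Klf2 (-0.91) were at its ends. The haemoglobin gene Hba-a1 was at 11.99 in IL-17A skin and 12.10 in GFP skin.

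The pair of arrays with IMQ gave the same contrast with no array in common. There 135 genes (1.06%) were higher by 2-fold or more in IL-17A skin and 36 (0.283%) lower. Of the 107 genes higher without IMQ, 91 were higher with it, which is 85.0% of the first list and 67.4% of the second, and all 107 were above 0. Of the 126 lower genes 9 were lower with IMQ, 7.14% of the first list and 25% of the second, and 113 were below 0. The median difference of all genes with IMQ was 0.004. The 107 and 126 genes were picked by their size in the pair without IMQ, so smaller differences in the other pair are partly built in. Across the 12729 genes the differences of both pairs had a Pearson correlation of 0.54, and of 0.47 over the 12676 genes left without the 3 hair lists and 7 further Krtap genes. All 4 arrays were normalised together, and genes are not independent replicates.

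Of the 64 higher genes neither on the 3 hair lists nor named Krtap, 37 had a larger difference under IMQ. That held for 2 of the 43 genes on those lists or named Krtap, and for 1 of the 126 lower genes. The 64 are not free of hair follicle genes. They include S100a3, Prr9, Tchhl1 and Crym, described above with the follicle, whose differences were all smaller under IMQ. The median of the antimicrobial list was 0.49 without IMQ and 0.86 with it, and the hyperproliferation list had 13 of 31 genes at least 2-fold higher without and 17 with it. Of those 13, 10 had a larger difference with IMQ and 3 a smaller one, among them Gjb2 (6.76-fold without and 4.50-fold with IMQ) and Sprr1b (2.46-fold without and 1.98-fold with IMQ). Lce3 genes at least 2-fold higher were 4 without and 3 with IMQ, while their median was 1.20 without and 1.61 with it. CXC chemokine list genes at least 2-fold higher were 2 without and 3 with IMQ, while the list median was 0.23 without and 0.01 with it. Hair shaft keratins had 2.40 without and 1.78 with IMQ, and resident macrophages -1.15 without and -0.49 with it. The fibroblast median was -0.50 without and 0.03 with IMQ. With 1 array in each group the difference between the pairs was not tested.

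**Figure D4:**
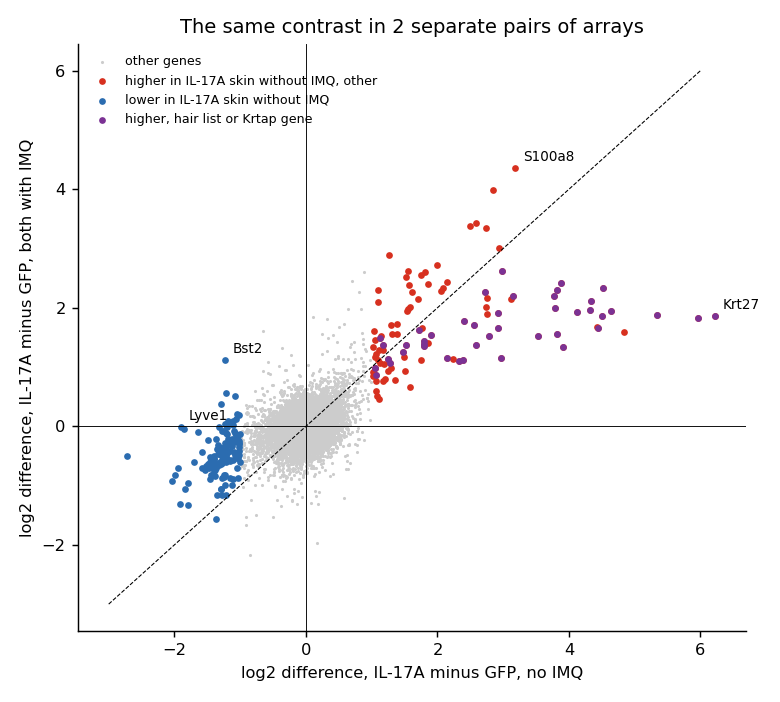
Log2 difference of IL-17A minus GFP skin for each gene without IMQ (horizontal axis) and with IMQ (vertical axis), from 2 pairs of arrays that share none, with equality as a dashed line. The 107 higher genes all lie above 0 on the vertical axis, those on hair lists or named Krtap mostly under the dashed line. Most of the 126 lower genes lie between that line and 0.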

How the data were processed

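RNA of 4 pools of 6 mice was measured on Illumina bead arrays. Per the file headers and values, the deposited intensity of each of 45281 probes had a background subtracted (32.3% to 33.7% of values below 0) and was not normalised. The authors also deposited normalised log2 values, whose method is not given in the sources used here. Per the labels' protocols, biotinylated cRNA was made from total RNA.

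The intensities were corrected with limma 3.58.1 (normexp, offset 50) under R 4.3.3, quantile normalised over the 4 arrays and put on the log2 scale. The offset shrinks differences of dim genes. The limit of background was the intensity passed by a share of 0.01 of the noise, taken as the values below 0 mirrored at 0. By the platform annotation 34885 probes had 1 symbol, 18 had several and 10378 had none, and 34807 Entrez identifiers were found in RefSeq. The brightest detected probe stood for its gene. Of 1095 genes on 48 lists 873 were measured. The others are not analysed here. Counts and promoter patterns were computed in Python 3.11.15 with pandas 2.3.3 and numpy 2.4.6. The number of arrays limits the precision.

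The members and lists were chosen with earlier results of these data known. The genes named were Il17a, the 25 largest on each side, and per list those at least 2-fold apart and up to 4 further members, with single genes added after their values were seen, such as markers and receptors. The procedure was checked on simulated arrays with changed probes. Those probes were taken well above the limit of background, so genes dark in GFP skin were not covered. Other settings are given in the closing section.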

Additional observations from a re-analysis of the deposited data

Results flagged for a closer look

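Bst2, an interferon-induced gene, was picked out because it lay on opposite sides in the pairs of arrays. Its difference of IL-17A minus GFP skin was -1.23 without IMQ and 1.12 with it, and its levels were 8.28 in IL-17A skin and 9.51 in GFP skin, and 9.30 in IL-17A skin and 8.18 in GFP skin with IMQ. The list of type I interferon genes likewise had a median of -0.50 without IMQ and 0.19 with it. Each pair is 1 array against 1, and neither difference was tested. Probes without a single gene symbol were outside the comparison: of 3414 above the limit on the IL-17A or GFP array, 22 passed 2-fold on the higher side in IL-17A skin and 17 on the lower.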

How the results depend on the processing

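No paired analysis was possible because each group had 1 array. The counts of 107 higher and 126 lower genes became 300 and 367 without background correction (floor of 16), 237 and 256 in the authors' normalised table, 60 and 13 at 3-fold and 271 and 406 at 1.5-fold. With detection on both arrays 54 genes were higher, and without the 3 hair lists and 5 further Krtap genes 64. Median scaling, quantile normalisation of the pair alone, an offset of 16, averaging the probes of each gene and no filter on the brighter array left both counts within 1.5 times. At 3-fold, 3 antimicrobial and 8 hyperproliferation genes were higher and 6 macrophage genes and 1 fibroblast gene lower. At 1.5-fold, 23 hyperproliferation genes were higher and 10 fibroblast genes lower. Detection on both arrays removes hair genes that are dark in GFP skin. It left 1 inner root sheath keratin, 1 hair shaft keratin and 0 keratin-associated proteins at least 2-fold higher, and turned the median of the last list to -0.030, from 1 gene. Of 145 named genes at least 2-fold apart, 12 came under 2-fold with the mean of the probes and 1 with median scaling, and 0 changed sign in the settings run. With detection on both arrays 102 of the 145 remained, and the rest dropped out. Scaling moved the median of all genes by less than 0.1. Dim genes, with signal near background, limit the folds of hair genes to bounds.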

Other observations

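Genes on no list accounted for 31 of the 107 higher and 72 of the 126 lower genes, and those named here were chosen after their values were seen. Among the higher were epidermal genes: the kallikrein protease gene Klk6 was at 12.27 in IL-17A skin and 10.78 in GFP skin, and the water and glycerol channel gene Aqp3 at 11.96 in IL-17A skin and 10.91 in GFP skin. Wfdc2, a whey acidic protein family gene, was at least 2.97-fold higher, and 8.69 in IL-17A skin and 6.14 in GFP skin with IMQ. Nppb, which encodes a natriuretic peptide, was at least 2.93-fold higher, and Upp1, the uridine phosphorylase, 2.26-fold, while its 2 other probes differed by 0.34 and 0.66.

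Among the lower were genes of myeloid and other leukocytes. Alox5ap, needed for leukotriene synthesis, was at 10.54 in IL-17A skin and 11.90 in GFP skin. The endosomal receptor gene Tlr7, whose product recognises imiquimod, was at 7.23 in IL-17A skin and 8.24 in GFP skin, and Unc93b1, which carries such receptors to endosomes, at 8.83 in IL-17A skin and 10.08 in GFP skin. The transcription factor gene Irf4 (2.61-fold), the Fc receptor gene Fcgr4 (2.49-fold), the lectin gene Mgl2 (2.18-fold) and the complement receptor gene Vsig4 (2.23-fold) were lower too. Il31ra, a subunit of the receptor of the itch cytokine IL-31, was 2.32-fold lower, and lower with IMQ too, at 7.53 in IL-17A skin and 8.69 in GFP skin.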
